A study of Mus musculus with 6 samples.

Results

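The enzymes that build sterols and fatty acids, with the proteins that control them, were followed through induction of Lef1 in early differentiation of mouse embryonic stem cells. The set has 29 genes, listed by pathway but chosen with earlier results of these data known. Every row of the deposited gene table that names a listed symbol was taken, out of 36699 rows. RNA came from day 3 embryoid bodies, free-floating aggregates of differentiating A2Lox.cre cells, all with a Flag-Lef1 transgene that doxycycline switches on. Lef1 binds DNA and, with beta-catenin, carries Wnt signals to target genes. In the plus_Dox group, 3 libraries (numbered 1, 2 and 3) had doxycycline for 24 h from day 2, and in the minus_Dox group, 3 libraries (numbered 1, 3 and 4) had none. The labels name the same cell line in both groups, with no other treatment, and no group of cells given doxycycline without the transgene is among the samples. Whether each library is a culture of its own is not stated in the labels, so their spread may be technical.

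The authors' deposited table holds 1 FPKM value (fragments per kilobase of transcript, scaled to the sequenced total) for each gene and group, so the values of single libraries, their depth and their overlap cannot be shown. The error after ± beside a log2 fold is the standard error (SE) implied by the authors' statistic, and a gene is said to have risen or fallen where the authors' q-value was at most 0.05. In the authors' deposited table Lef1 itself stood at 51.0 FPKM in plus_Dox and 7.56 FPKM in minus_Dox, a log2 fold of 2.75 ± 0.19. Of 18114 rows tested, 8.98% rose and 3.22% fell, 12.2% in all. The median log2 fold of the 12240 tested rows with at least 1 FPKM was 0.20, so a gene with a log2 fold near 0.20 sits at the middle of the table. Of 8 tested pluripotency and epiblast markers, 3 rose (Nanog, Dppa5a and Utf1) and 1 fell (Sox2). After a table-wide trend on transcript GC content and length was removed Nanog and Sox2 still passed. After the median of 0.20 was subtracted instead, Nanog passed as a rise, and Sox2 and Fgf5 passed as falls. Nanog had 109.7 FPKM in plus_Dox and 28.6 FPKM in minus_Dox, and Sox2 30.9 FPKM in plus_Dox and 56.2 FPKM in minus_Dox in the authors' deposited table. The row of Sox2 spans 578183 bp against 2057 bp for the gene, so its value may not be that of Sox2 alone. The tested markers ran from Zfp42, at 9.0 FPKM in plus_Dox and 7.69 FPKM in minus_Dox, to Pou5f1, at 1510 FPKM in plus_Dox and 820 FPKM in minus_Dox. The part of this shift in markers in the sterol gene levels was not tested. In these bulk samples, fewer cells of a type and less RNA per cell cannot be told apart.

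Cholesterol is made from acetyl-CoA through mevalonate, isoprenoid diphosphates, squalene and lanosterol, and fatty acids are made from the same acetyl-CoA by carboxylation, chain assembly, elongation and desaturation. Both routes answer to the SREBP transcription factors, which Scap carries out of the endoplasmic reticulum when sterol is scarce and which Insig proteins hold back when it is plentiful. Srebf2 is known mainly for the sterol genes and Srebf1 for the fatty acid genes. SREBP proteins bind sterol regulatory elements in promoters and commonly act beside the factor NF-Y, which binds the CCAAT box. Sterols also matter to the early embryo because Hedgehog ligands carry cholesterol and Wnt ligands carry a monounsaturated fatty acid that stearoyl-CoA desaturases make.

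Most of the sterol gene promoters searched held a CCAAT box, in genes that rose and in genes that did not pass. RefSeq promoter windows of the build GRCm38.p6 were found for 23 of the 29 genes, and the 250 bases before each start were searched on both strands. A gene was counted if any of its starts had a match. CCAAT was present in 12 of 13 sterol branch genes, in 4 of 5 control genes and in 2 of 5 fatty acid genes. The share was 37.5% of all 27025 genes with RefSeq windows, and 42.2% of the 6063 whose rows were tested with at least 5 FPKM. The letters TCACNCCAC, a form of sterol regulatory element, were found in 1 sterol branch gene, Hmgcs1, and in 1.22% of all genes. No mismatch was allowed, so elements with other letters would be missed, and Fdps, Fdft1 and Sqle had no window to search. The Tcf/Lef cores CTTTGAA or CTTTGAT were found in 2 of the 23 genes, Pmvk (first of 2 starts) and Elovl6, and in 8.63% of all genes. A match is a description of letters and not a binding site. The windows of 6 genes are shown because they span the range of responses below, from the rises of Mvk, Ebp and Pmvk to the lower value of Idi1, the unmeasured Hmgcs1 and the fatty acid gene Fasn. They read 5′ to 3′ on the gene's strand, with CCAAT in either orientation (CCAAT or ATTGG) and the sterol regulatory element in capitals.
Mvk, chr5:114444019-114444268, plus strand: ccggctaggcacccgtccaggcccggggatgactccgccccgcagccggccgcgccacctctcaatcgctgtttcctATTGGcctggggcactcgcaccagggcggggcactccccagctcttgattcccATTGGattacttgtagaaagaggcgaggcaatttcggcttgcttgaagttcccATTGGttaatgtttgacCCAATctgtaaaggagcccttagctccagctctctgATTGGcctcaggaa
Ebp, chrX:8193513-8193762, minus strand: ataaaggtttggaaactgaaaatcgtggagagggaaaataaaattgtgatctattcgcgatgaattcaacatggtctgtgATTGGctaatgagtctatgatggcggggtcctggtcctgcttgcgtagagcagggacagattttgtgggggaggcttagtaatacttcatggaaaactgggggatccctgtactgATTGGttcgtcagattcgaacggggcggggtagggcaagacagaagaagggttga
Pmvk, chr3:89454291-89454540, plus strand: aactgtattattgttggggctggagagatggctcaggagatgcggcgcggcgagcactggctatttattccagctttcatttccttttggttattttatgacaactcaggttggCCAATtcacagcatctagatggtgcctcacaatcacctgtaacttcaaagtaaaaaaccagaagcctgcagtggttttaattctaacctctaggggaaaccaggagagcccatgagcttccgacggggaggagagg
Idi1, chr13:8885356-8885605, plus strand: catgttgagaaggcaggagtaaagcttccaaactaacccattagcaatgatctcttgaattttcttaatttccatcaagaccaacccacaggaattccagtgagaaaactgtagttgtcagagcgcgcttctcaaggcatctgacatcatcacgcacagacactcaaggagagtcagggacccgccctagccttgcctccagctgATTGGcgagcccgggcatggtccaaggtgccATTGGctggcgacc
Hmgcs1, chr13:119690101-119690350, plus strand: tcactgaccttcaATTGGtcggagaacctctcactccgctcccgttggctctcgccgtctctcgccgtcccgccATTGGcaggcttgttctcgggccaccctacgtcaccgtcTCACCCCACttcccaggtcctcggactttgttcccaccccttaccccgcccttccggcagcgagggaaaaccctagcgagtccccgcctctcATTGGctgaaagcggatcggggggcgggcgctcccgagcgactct
Fasn, chr11:120824548-120824797, minus strand: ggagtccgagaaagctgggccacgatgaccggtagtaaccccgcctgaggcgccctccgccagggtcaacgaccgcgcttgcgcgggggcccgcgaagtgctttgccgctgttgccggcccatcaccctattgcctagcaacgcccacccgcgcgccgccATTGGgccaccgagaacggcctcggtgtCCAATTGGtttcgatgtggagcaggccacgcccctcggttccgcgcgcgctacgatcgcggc
Mvk has 5 CCAAT boxes in this window, Hmgcs1 has 3, Ebp and Idi1 have 2 each, and the first of the 2 starts of Pmvk has 1. The second start of Pmvk, whose window is not shown, has 0 CCAAT boxes and 0 Tcf/Lef cores. The measured row of Pmvk spans 9897 bp, less than the 14473 bp of the gene in GENCODE vM21, so it may leave out the first start. Which start these cells used was not tested. In Fasn 3 were counted, of which 2 overlap on opposite strands. The box therefore stands in Mvk and Ebp, which rose, at 1 of the 2 starts of Pmvk, which rose, and in Idi1, which was lower but did not pass. Hmgcs1, Mvd and Lss, also counted with the box, had no tested response.

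Of the 29 genes, 28 have a row and 24 were tested in the authors' deposited table. Of these, 4 rose, 0 fell and 20 did not pass. The 4 of 24 rises stand beside 8.98% of all tested rows, and among the 22 tested members with at least 5 FPKM they stand beside 14.9% of 8530 rows that rose. In either direction 18.9% of those rows passed, as did 20.6% of 6057 rows with a mean of at least 10 FPKM. All 4 rises were in the sterol branch, where 13 of 16 genes were tested, Tm7sf2 through a row shared with other genes. The sterol branch is defined here as the enzymes from Acat2 to Dhcr7. In the fatty acid branch 6 of 7 genes were tested and 0 passed the authors' Cuffdiff test, also 0 at an unadjusted p under 0.05, beside 12.2% of all tested rows. The median log2 fold was 0.15 over the tested sterol branch and -0.07 over the tested fatty acid branch, against 0.20 over all rows. The medians differed by 0.22. Members are not replicates, so the branches were compared without a test.

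**Figure D1:**
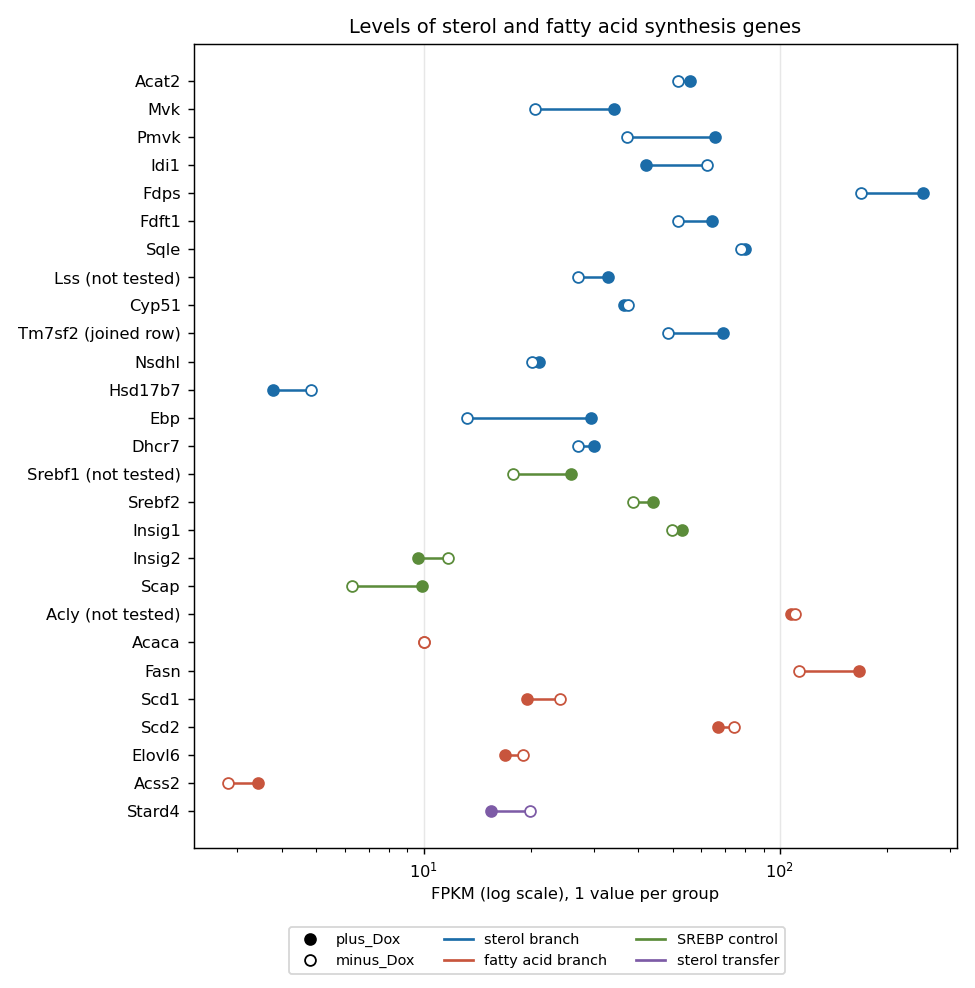
FPKM in plus_Dox (filled) and minus_Dox (open) of the 27 members with a level above 0, on a log scale, coloured by branch. The widest gap is that of Ebp, with 29.6 FPKM in plus_Dox and 13.2 FPKM in minus_Dox. Of the 24 tested members 9 run the other way, among them Idi1, Scd1 and Stard4.

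The early, mevalonate part of the sterol route held 3 of the 4 rises, among 5 tested genes, beside 8.98% of all tested rows. None of these 3 passed once a table-wide trend on transcript GC content and length was removed. Pmvk, phosphomevalonate kinase, stood at 65.8 FPKM in plus_Dox and 37.3 FPKM in minus_Dox in the authors' deposited table. It rose 1.77-fold with a 95% interval from 1.4 to 2.23 (log2 fold 0.82 ± 0.17, q = 8.45e-05), and its row lies on chromosome 3 from 89263039 to 89272935 in mm9. Mvk, the mevalonate kinase that acts just before it, stood at 34.2 FPKM in plus_Dox and 20.5 FPKM in minus_Dox in the authors' deposited table. It rose 1.67-fold with a 95% interval of 1.26 to 2.21 (log2 fold 0.74 ± 0.21, q = 0.0059), from a row on chromosome 5 (114894277 to 114910600). The intervals of the 2 kinases overlap almost wholly.

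Fdps, farnesyl diphosphate synthase, makes the isoprenoid from which sterols, ubiquinone, dolichol and protein prenyl groups branch. It had the highest level of all members, 252 FPKM in plus_Dox and 169 FPKM in minus_Dox in the authors' deposited table, above 97.7% of tested rows by its mean. It rose 1.49-fold with a 95% interval of 1.2 to 1.85 (log2 fold 0.58 ± 0.16, q = 0.0055), from a row on chromosome 3 (88897513 to 88905881). Summed over the sterol branch, the authors' deposited table gives 817 FPKM in plus_Dox and 649 FPKM in minus_Dox, or 565 FPKM in plus_Dox and 480.0 FPKM in minus_Dox without Fdps. These sums include Lss, whose test failed, and the row that Tm7sf2 shares with 1110014N23Rik and Zfpl1. That shared row had 69.1 FPKM in plus_Dox and 48.7 FPKM in minus_Dox.

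Idi1 ran the other way. This isomerase interconverts the 2 isoprenoid building blocks that Fdps joins, and its row lies on chromosome 13 (8884746 to 8891697). It stood, in the authors' deposited table, at 42.0 FPKM in plus_Dox and 62.4 FPKM in minus_Dox, a fold of 0.673 with an interval of 0.483 to 0.939. It did not pass (log2 fold -0.57 ± 0.24, q = 0.12 by the authors' Cuffdiff test). Idi1 was the 1 member with an unadjusted p under 0.05 among the 20 that did not pass. Acat2, the cytosolic thiolase that starts the route, stood at 55.8 FPKM in plus_Dox and 51.8 FPKM in minus_Dox in the authors' deposited table, with an interval of the fold from 0.869 to 1.34. The remaining mevalonate genes gave no value. Hmgcs1, the synthase that makes the precursor of mevalonate, has 2 rows on unplaced contigs that are listed at 0 in both groups and were not tested, and Mvd, the decarboxylase, was not analysed here.

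From squalene to cholesterol, 8 of 9 genes were tested and 1 rose, Ebp, beside 8.98% of all tested rows. Ebp encodes the sterol isomerase that shifts a ring double bond late in cholesterol synthesis, and lies on the X chromosome from 7762454 to 7770638 in mm9. Its level in the authors' deposited table was 29.6 FPKM in plus_Dox and 13.2 FPKM in minus_Dox. The 2.23-fold rise, with a 95% interval of 1.60 to 3.11, was the largest of any tested member (log2 fold 1.16 ± 0.24, q = 0.00012). Its neighbours in the route did not follow it beyond their error. Dhcr7, the reductase that completes cholesterol, stood at 30.0 FPKM in plus_Dox and 27.0 FPKM in minus_Dox in the authors' deposited table, a fold of 1.11 with an interval of 0.804 to 1.53. Nsdhl, the dehydrogenase that acts before Ebp and the other X-linked member, stood at 21.1 FPKM in plus_Dox and 20.2 FPKM in minus_Dox, a fold of 1.05 with an interval of 0.827 to 1.33 in the same table.

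The steps around squalene and lanosterol did not pass where they were tested. In the authors' deposited table Sqle, squalene epoxidase, a rate-controlling enzyme after mevalonate, stood at 79.7 FPKM in plus_Dox and 77.9 FPKM in minus_Dox, with an interval of the fold from 0.821 to 1.28. Cyp51, the lanosterol demethylase, stood at 36.5 FPKM in plus_Dox and 37.4 FPKM in minus_Dox in the authors' deposited table, with an interval from 0.711 to 1.34. Fdft1, squalene synthase, stood at 64.4 FPKM in plus_Dox and 51.8 FPKM in minus_Dox, a fold of 1.24 with an interval from 0.913 to 1.70 in the authors' deposited table. Its row spans 55330 bp, more than the 34429 bp of the gene in GENCODE vM21, and overlaps the row of Ctsb. Hsd17b7, a ketosterol reductase and the lowest of the tested sterol enzymes, stood at 3.77 FPKM in plus_Dox and 4.81 FPKM in minus_Dox in the authors' deposited table, an interval of the fold from 0.565 to 1.08. Lss, lanosterol synthase, is listed at 32.9 FPKM in plus_Dox and 27.1 FPKM in minus_Dox, and its test is marked as failed. Tm7sf2, a sterol reductase, shares its row with 1110014N23Rik and Zfpl1. In the authors' deposited table that row stood at 69.1 FPKM in plus_Dox and 48.7 FPKM in minus_Dox (log2 fold 0.51 ± 0.27, q = 0.26), a value that cannot be assigned to any of the 3 genes.

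None of the tested control genes passed the authors' Cuffdiff test (0 of 4, and 0 at an unadjusted p under 0.05), beside 12.2% of all tested rows. Srebf2 stood at 44.0 FPKM in plus_Dox and 38.7 FPKM in minus_Dox in the authors' deposited table, with an interval of the fold from 0.913 to 1.42. Srebf1 is listed at 26.0 FPKM in plus_Dox and 17.9 FPKM in minus_Dox, but its test failed. Its row spans 117570 bp against 23493 bp for the gene and overlaps that of Rai1. Insig1, itself a target of the SREBP factors, stood at 53.1 FPKM in plus_Dox and 49.8 FPKM in minus_Dox in the authors' deposited table, an interval from 0.859 to 1.32. Its paralogue Insig2 stood at 9.64 FPKM in plus_Dox and 11.7 FPKM in minus_Dox, an interval from 0.466 to 1.46 in the same table. Scap stood at 9.91 FPKM in plus_Dox and 6.28 FPKM in minus_Dox in the authors' deposited table, a fold of 1.58 whose interval ran from 0.859 to 2.90. Stard4, which carries sterol between membranes, stood at 15.5 FPKM in plus_Dox and 19.9 FPKM in minus_Dox, with an interval of the fold from 0.560 to 1.08.

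The fatty acid branch was split between a higher Fasn and lower desaturases, none of which passed. Fasn, the synthase that assembles the chain, stood at 167 FPKM in plus_Dox and 113 FPKM in minus_Dox in the authors' deposited table. Its fold of 1.47 was close to the 1.49 of Fdps, but its SE was 0.35 against 0.16, so its interval ran from 0.918 to 2.36 (q = 0.35). In the authors' deposited table Scd1, a stearoyl-CoA desaturase, stood at 19.6 FPKM in plus_Dox and 24.1 FPKM in minus_Dox (log2 fold -0.30 ± 0.16, q = 0.24). Its paralogue Scd2 had the higher FPKM of the desaturases in the authors' deposited table, at 67.0 FPKM in plus_Dox and 74.3 FPKM in minus_Dox (log2 fold -0.15 ± 0.16, q = 0.70). How reads common to both paralogues were divided is not stated in the labels, so their separate levels are uncertain.

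None of the remaining fatty acid genes passed. Elovl6, the elongase of long saturated chains, stood at 16.9 FPKM in plus_Dox and 19.0 FPKM in minus_Dox in the authors' deposited table, an interval of the fold from 0.716 to 1.11. Acaca, acetyl-CoA carboxylase, the committed step, was listed at 10.03 FPKM in plus_Dox and 10.04 FPKM in minus_Dox, with an interval from 0.519 to 1.92. Acly, the citrate lyase that supplies cytosolic acetyl-CoA to both branches, is listed at 107.6 FPKM in plus_Dox and 110.2 FPKM in minus_Dox, with a failed test. Acss2, which makes acetyl-CoA from acetate, stood at 3.42 FPKM in plus_Dox and 2.83 FPKM in minus_Dox in the authors' deposited table, with an interval from 0.295 to 4.95. The row of Acss2 overlaps those of Ggt7 and Gss. Intervals this wide do not show that Acaca and Acss2 kept their levels.

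**Figure D2:**
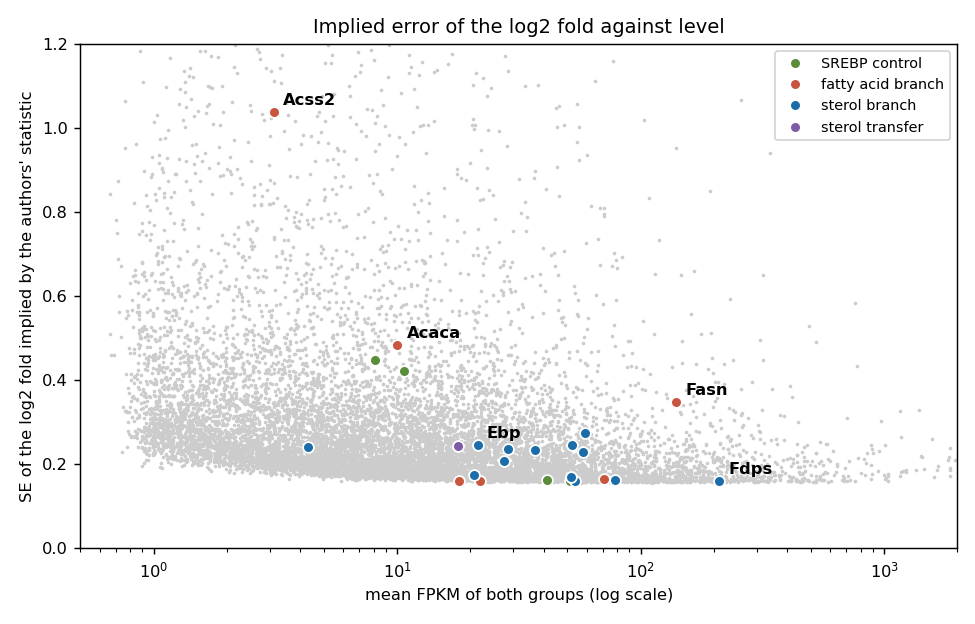
Implied SE of the log2 fold (vertical) against the mean FPKM of both groups (log scale) for tested rows with at least 1 FPKM (grey) and for tested members (coloured by branch). Rows beyond the axes are not drawn. Acss2, Acaca and Fasn lie above most rows of their level, and Fdps lies at the lower edge.

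Precision differed among the members, as the plot of implied errors shows. Over 8486 tested rows with at least 5 FPKM the median SE was 0.21 and the 90th percentile 0.47. Acaca (0.48) and Acss2 (1.04) were above that percentile, and Scap (0.45) and Insig2 (0.42) were under it. The 4 rises had SEs from 0.16 (Fdps) to 0.24 (Ebp). Fdps and Fasn had nearly the same log2 fold, 0.58 and 0.56, and of the pair Fdps passed.

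**Figure D3:**
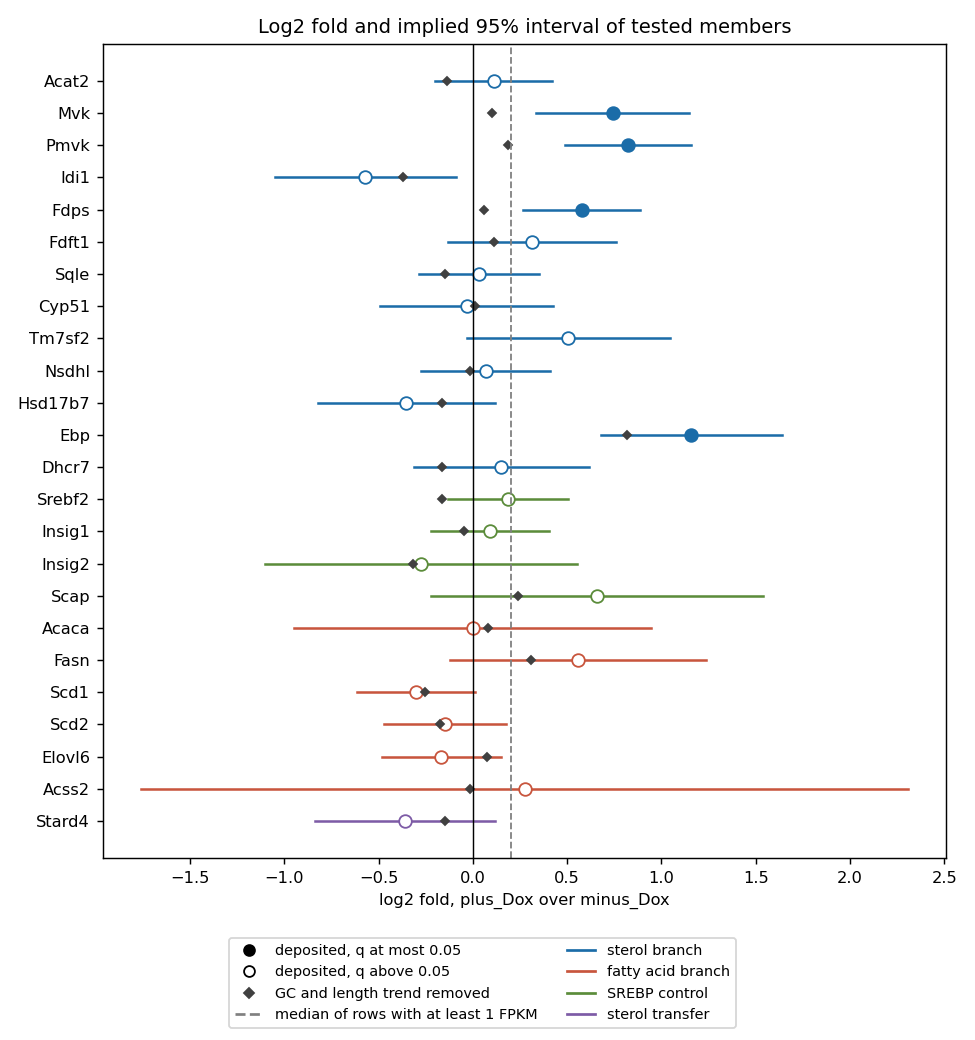
Deposited log2 fold of plus_Dox over minus_Dox for the 24 tested members with implied 95% intervals (circles, filled where q was at most 0.05), and the value after the GC and length trend was removed (diamonds). The dashed line is the median of rows with at least 1 FPKM, 0.20. The diamonds of Mvk, Pmvk and Fdps fall near 0, and that of Ebp stays at 0.82.

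The members' folds ran with the GC content of their transcripts, and Ebp stood apart. Over 11595 tested rows, Spearman's rho between the log2 fold and GC content was 0.65, and between the log2 fold and length -0.47. Across the 23 members with both values rho was 0.88 for GC content and -0.48 for length, a description over genes that share the same libraries. Transcripts of the 4 genes that rose had a median GC content of 55.7% and a median length of 1521 nt, against 49.1% and 3931 nt for the 19 with these values among the 20 that did not pass, and 50.3% and 2653 nt for all tested rows. After a spline trend on GC content and length was subtracted over the whole table, 2.2% of 16657 rows passed and 1.24% rose, and Ebp was the 1 member called (log2 fold 0.82, q = 0.041). Mvk then stood at 0.10, Pmvk at 0.19 and Fdps at 0.06, each with 0 inside its 95% interval (q = 1.00 for all 3), and Idi1 stood at -0.37 (q = 0.85). Of the 23 members, 22 had the trend within their 95% interval. The median was then -0.002 over the sterol branch and 0.03 over the fatty acid branch, so their difference turned to -0.03. Whether GC content set these folds was not tested.

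**Figure D4:**
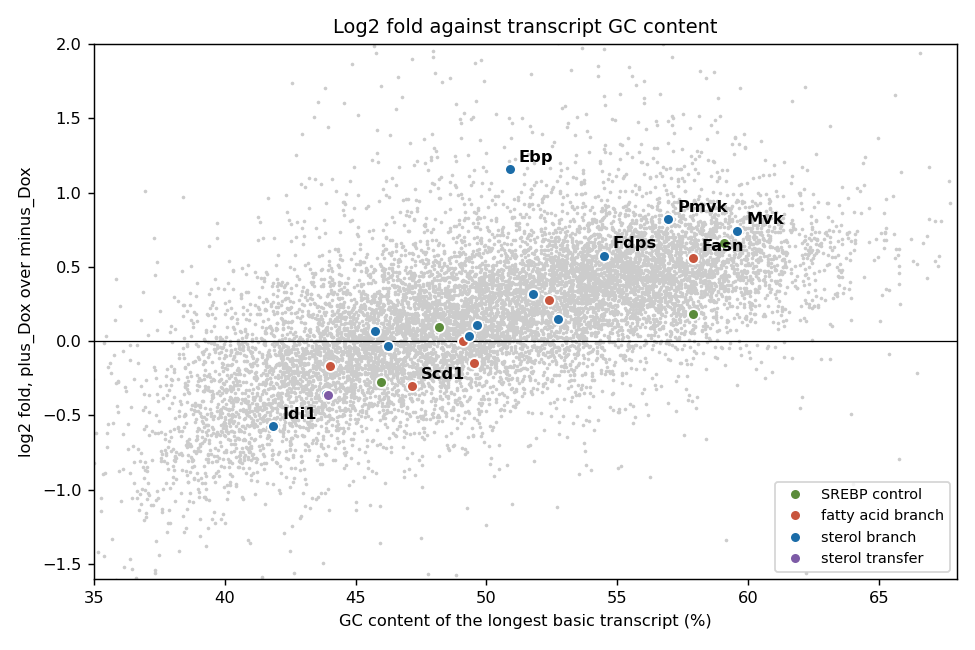
Log2 fold of plus_Dox over minus_Dox against the GC content of the longest basic transcript, for tested rows with at least 1 FPKM (grey) and members (coloured by branch). Rows beyond the axes are not drawn. The members run along the grey band from Idi1 at 41.9% GC to Mvk at 59.6% GC, and Ebp, at 50.9% GC, stands above the band.

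The scaling between the groups also changed which members passed. After the median of 0.20 was subtracted, 9.56% of 17830 rows passed, 3.47% as rises and 6.1% as falls, and 2 members rose and 2 fell. Pmvk (log2 fold 0.62, q = 0.0054) and Ebp (0.96, q = 0.0023) still passed as rises. Mvk (0.54, q = 0.076) and Fdps (0.38, q = 0.13) did not pass, while Idi1 (-0.77, q = 0.023) and Scd1 (-0.50, q = 0.024) passed as falls. Relative to the median row, 9 of the 24 tested members were higher and 15 were lower. As deposited, 15 were higher in plus_Dox and 9 lower. Ebp was the 1 member that passed in the same direction as deposited, after scaling and after the trend was removed.

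Around the 2 branches, 5 further lists held 78 tested genes, of which 8 (10.3%) passed the authors' test, a share near the 12.2% of all tested rows. The calls over these lists were 7 rises and 1 fall as deposited, and 0 rises and 7 falls after median-ratio scaling, so the directions here depend on the scaling. Of 8 further enzymes of sterol synthesis, 7 were tested, and 0 passed the authors' Cuffdiff test, also 0 at an unadjusted p under 0.05, with a median log2 fold of 0.10 and a range from -0.18 to 0.44. Among them Lbr, a sterol reductase of the nuclear envelope named here after its value was seen, stood at 40.8 FPKM in plus_Dox and 36.8 FPKM in minus_Dox in the authors' deposited table. Of 11 genes for processing and turnover of SREBP proteins, 0 passed the authors' Cuffdiff test and 3 had an unadjusted p under 0.05, with a median log2 fold of -0.01. After median-ratio scaling 2 of their rows passed as falls, that of Rnf139 (q = 0.021) and that of Mbtps2 (q = 0.033), the protease that makes the final cut in SREBP. Mbtps2 shares its row with Yy2, so this value cannot be assigned to either gene. The 2 highest of the 11 genes were Pgrmc1, a membrane protein known to bind Insig1 and Scap, at 50.8 FPKM in plus_Dox and 54.6 FPKM in minus_Dox, and Mbtps1. Mbtps1, the protease that makes the first cut in SREBP, stood at 29.2 FPKM in plus_Dox and 25.9 FPKM in minus_Dox in the authors' deposited table.

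In the list of sterol uptake, efflux and liver X receptor genes, 2 of 20 rose and 0 fell, beside 8.98% and 3.22% of all tested rows, with a median log2 fold of 0.24. In the authors' deposited table Npc2, which moves cholesterol out of lysosomes, stood at 79.1 FPKM in plus_Dox and 53.0 FPKM in minus_Dox (log2 fold 0.58 ± 0.16, q = 0.0047), and the liver X receptor gene Nr1h2 at 55.2 FPKM in plus_Dox and 34.4 FPKM in minus_Dox (log2 fold 0.69 ± 0.24, q = 0.042). After median-ratio scaling neither passed (q = 0.12 for Npc2 and 0.24 for Nr1h2), and Abcg1, a sterol exporter, passed as a fall (q = 0.048). Among 14 genes that use isoprenoids beyond Fdps, 2 rose and 1 fell, beside the same shares of all rows, with a median of 0.29. The rises were in Rce1, a protease that trims prenylated proteins, and Rabggta, a subunit of the enzyme that prenylates Rab proteins (log2 folds 0.67 and 0.56 in the authors' deposited table). Pggt1b, a subunit of another geranylgeranyl transferase, fell in the authors' deposited table, with 4.37 FPKM in plus_Dox and 6.63 FPKM in minus_Dox (log2 fold -0.60 ± 0.20, q = 0.024). After median-ratio scaling the fall of Pggt1b passed (q = 0.0014), and Rce1 (q = 0.060) and Rabggta (q = 0.23) did not. Of 26 further genes of fatty acid synthesis, elongation and desaturation, 3 rose and 0 fell, beside 8.98% and 3.22% of all tested rows, with a median of 0.23. Those were Tecr, a reductase of chain elongation (190.0 FPKM in plus_Dox and 124 FPKM in minus_Dox), Mid1ip1, an activator of acetyl-CoA carboxylase (28.2 FPKM in plus_Dox and 15.1 FPKM in minus_Dox), and the mitochondrial transacylase gene Mcat (11.7 FPKM in plus_Dox and 8.23 FPKM in minus_Dox) in the authors' deposited table. After median-ratio scaling Tecr (q = 0.13), Mid1ip1 (q = 0.067) and Mcat (q = 0.36) did not pass, while the elongase genes Elovl2 (q = 0.013) and Elovl4 (q = 0.0053) and the malic enzyme gene Me1 (q = 0.026) passed as falls. After the GC and length trend was removed, 0 of the 76 genes of these 5 lists with a value passed (lowest q = 0.26). The genes that passed after scaling alone were named after their values were seen.

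Markers of other cell types were examined because visceral endoderm handles lipoproteins and the stem cells had been kept on mouse embryonic fibroblasts, removed before aggregation. Of 12 visceral endoderm markers, 3 rose (Apom, Amn and Sox17) and 0 fell in the authors' deposited table, beside 8.98% and 3.22% of all tested rows, and the summed level of the 12 was 210.2 FPKM in plus_Dox and 176 FPKM in minus_Dox. The single markers ranged from 3.17 to 48.6 FPKM in plus_Dox and from 2.45 to 37.6 FPKM in minus_Dox, and none was at 0. After median-ratio scaling Amn rose (q = 0.033) and Cubn fell (q = 0.039), and after the GC and length trend was removed 0 rose and Gata6 fell (q = 0.024). Of 9 tested fibroblast markers, 0 passed the authors' Cuffdiff test and 2 had an unadjusted p under 0.05, and the sum over all 10 was 24.8 FPKM in plus_Dox and 19.6 FPKM in minus_Dox. The highest fibroblast marker was Thy1, at 16.6 FPKM in plus_Dox and 11.9 FPKM in minus_Dox. The median over the 10 was 0.923 FPKM in plus_Dox and 0.774 FPKM in minus_Dox. Of the collagen genes, Col1a2 stood at 1.95 FPKM in plus_Dox and 1.60 FPKM in minus_Dox. Col1a1 stood at 1.32 FPKM in plus_Dox and 0.888 FPKM in minus_Dox. Lum, at 0.013 FPKM in plus_Dox and 0.027 FPKM in minus_Dox, was not tested. The part of either cell type in the levels of the sterol genes was not tested.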

How the data were processed

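Per the labels, total RNA was treated with DNase, polyadenylated RNA was captured on oligo-dT beads, and fragmented RNA was reverse transcribed with random primers. Per the submitters' processing notes, Cuffdiff, Cufflinks 2.0.2, TopHat2 2.0.8, Bowtie and Picard were used with the build mm9. Their roles and the annotation are not given in the sources used here. Per the file headers, the authors' deposited table holds an FPKM value per group, a log2 fold of plus_Dox over minus_Dox and a test statistic (a score whose sign is opposite to that of the fold). The authors' p-value and q-value stand beside them. Each p was checked against the two-sided tail of a normal distribution and each q against the Benjamini-Hochberg value over tested rows (largest differences 2.8e-06 and 2.1e-06).

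With 0 columns for single libraries, the authors' own test was used, as the design foresaw, and the SE is the log2 fold divided by the statistic. Intervals are normal 95% intervals. They rest on the spread the authors' test assumed, the depth being unknown. Members and lists were chosen with earlier results of these data known. For the trend, each gene's longest basic transcript in GENCODE vM21 (GRCm38) gave its GC content and length, found for 16753 tested rows (92.5%), 1373 of them through an older symbol. Cubic splines with 6 knots each were fitted by least squares to rows with at least 1 FPKM. After trend removal or median-ratio scaling, p and q were recomputed with the same SE over the whole table (Python 3.11.15, numpy 2.4.6, scipy 1.17.1). Trend removal and the recomputed p and q were tested on simulated data, with changes larger than those of the members. Median-ratio scaling was not simulated. All 29 members were named, and of other lists those called whose higher value was 1 FPKM or more or, with none called, the 2 with the highest mean. Not every gene this rule selects is printed.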

Additional observations from a re-analysis of the deposited data

How the results depend on the processing

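The counts of 4 called members, all in the sterol branch, were unchanged at q-values of 0.01 and 0.1 and with minima of 1 and 5 FPKM. With at least a 2-fold change, 1 member of the sterol branch passed, and after removal of the GC and length trend also 1 (Ebp both times). With median-ratio scaling the count was 4 members (2 rises, 2 falls), of which 3 in the sterol branch and 1, a fall, in the fatty acid branch, where the count was otherwise 0. The median log2 fold of the sterol branch, 0.15, turned to -0.0502 with that scaling and to -0.0017 after trend removal. The median of the fatty acid branch, -0.07, turned to 0.0351 as a mean and to 0.0314 after trend removal. The difference of the medians, 0.22, turned to -0.0331 after trend removal. Under the other alternatives it ranged from 0.22 to 0.38 and the cause of these shifts was not tested. Of the tested members, 18 of 24 kept their sign with median-ratio scaling and 13 of 23 after trend removal. The depth is unknown, so no limit from counting can be given. Leaving out each library was not run, since the table holds group values. No paired analysis was possible because the table has no columns of single libraries and so carries no replicate numbers.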

Other observations

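Fatty acid breakdown and glycerolipid synthesis, the other fates of acyl chains, were also read from the authors' deposited table. Of 20 tested genes of fatty acid oxidation, 2 rose and 0 fell, beside 8.98% and 3.22% of all tested rows, with a median log2 fold of 0.39. As deposited 19 were higher in plus_Dox, and relative to the median row of the table (log2 fold 0.20) 14 were above it and 6 below. The rises were in Cpt1a, the carnitine transferase that admits fatty acids to mitochondria (2.56 FPKM in plus_Dox and 1.57 FPKM in minus_Dox, log2 fold 0.70 ± 0.20, q = 0.0087), and in the isomerase gene Eci1 (38.7 FPKM in plus_Dox and 25.8 FPKM in minus_Dox, q = 0.010) in the authors' deposited table. Of 17 tested glycerolipid genes, 1 rose, the acyltransferase gene Agpat1 (37.1 FPKM in plus_Dox and 24.2 FPKM in minus_Dox, q = 0.033), and 0 fell, beside the same shares of all rows, with a median of 0.27. With median-ratio scaling Cpt1a (q = 0.10), Eci1 (q = 0.16) and Agpat1 (q = 0.24) did not pass. After trend removal the median log2 fold of the oxidation list was 0.01 and that of the glycerolipid list -0.05, with 0 calls in either list. The median GC content of these transcripts was 51.3% for oxidation and 50.6% for glycerolipid genes, beside 50.3% for all tested rows.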
